A study of Mus musculus with 18 samples.

Results

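Gene expression was compared between 2 immortalized mouse embryonic fibroblast lines before any treatment. One was wild type (WT), and the second, eIF2α S51A, carries eIF2α with alanine in place of the serine at position 51. The comparison covers every entry of the authors' table for untreated cells, 7555 of the 10133 distinct entries in 3 such tables. The groups are Wild-Type untreated (3 samples) and eIF2α S51A untreated (3 samples), 6 of the 18 samples in the series. Both lines were grown in DMEM with 10% fetal bovine serum, with no oxidant, and the labels give their time as 0 min. The other 12 samples had received 500 µM hydrogen peroxide for 15 or 120 min and are used below only to see whether the line difference recurred in other libraries. The series' design text speaks of duplicates, whereas the labels list 3 samples in each group.

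eIF2 is the GTP-binding factor that carries the initiator tRNA to the ribosome. When stress kinases phosphorylate its α subunit at this serine, eIF2 blocks its own exchange factor, eIF2B, general initiation slows, and a few mRNAs, among them that of the transcription factor ATF4, are translated more. Cells with the alanine form cannot make this switch, and such fibroblasts are widely used to ask which responses need it. Elongation is controlled in parallel through eEF2 and its kinase, which is the other pathway the study's title names.

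The table gives 1 value per line and gene, in FPKM (fragments scaled to transcript length and to all mapped fragments), so no spread between samples can be given and the depth is unknown. Where a pair of values stands without line names, WT comes first. Every entry was called different by the authors, at q-values in the authors' deposited table from 0.000118 to 0.05. Genes that were not called are not in it. A gene named here as not listed may therefore be alike, may be too low to test, or may have been left out. No label states whether the samples of a group were separate cultures, and the authors' q-values may then reflect technical spread. A single line stands for each genotype, which means that genotype and line cannot be told apart anywhere below.

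The 2 lines differed across much of the transcriptome. Of the 7555 entries, 3749 (49.6%) were higher and 3806 (50.4%) lower in S51A. At 2-fold or more, 1667 (22.1%) were higher and 1132 (15.0%) lower. The calls under 1.5-fold numbered 2423 (32.1%), and 1362 of them were lower. Among the larger differences S51A was more often the higher line. From 2-fold to under 4-fold, 1013 genes were higher and 861 lower. From 4-fold to under 8-fold, 285 genes were higher and 140 lower, and at 8-fold or more, with both lines above 0, 287 were higher and 118 lower. A further 82 genes were listed at 0 in WT and 13 at 0 in S51A. Genes higher in S51A were mostly modest in level, with medians of 5.46 FPKM in WT against 11.2 FPKM in S51A. Genes lower in S51A had medians of 33.8 FPKM in WT against 19.8 FPKM in S51A.

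Level and direction went together. In the least expressed class of 746 genes, with a mean of both lines from 0.359 to 1.85 FPKM, 69.8% were higher in S51A. In the most expressed class, from 94.7 to 12005 FPKM, 14.5% were higher and the median log2 ratio was -0.69. The 10 most abundant entries were lower in S51A, among them the galectin gene Lgals1 at 3468 FPKM in WT against 2257 FPKM in S51A, the elongation factor gene Eef1a1 at 5149 and 2304 FPKM, and the actin gene Actb at 3104 and 1965 FPKM. Summed over the table, the listed genes came to 465897 FPKM in WT against 329301 FPKM in S51A. Rescaling S51A to the same sum adds 0.50 to every log2 ratio, and 62.8% of the entries would then be higher. The direction of a small difference in an abundant gene therefore depends on scaling. Many of the classes below are given on both scales, and counts given only as deposited can also change with scaling.

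**Figure D1:**
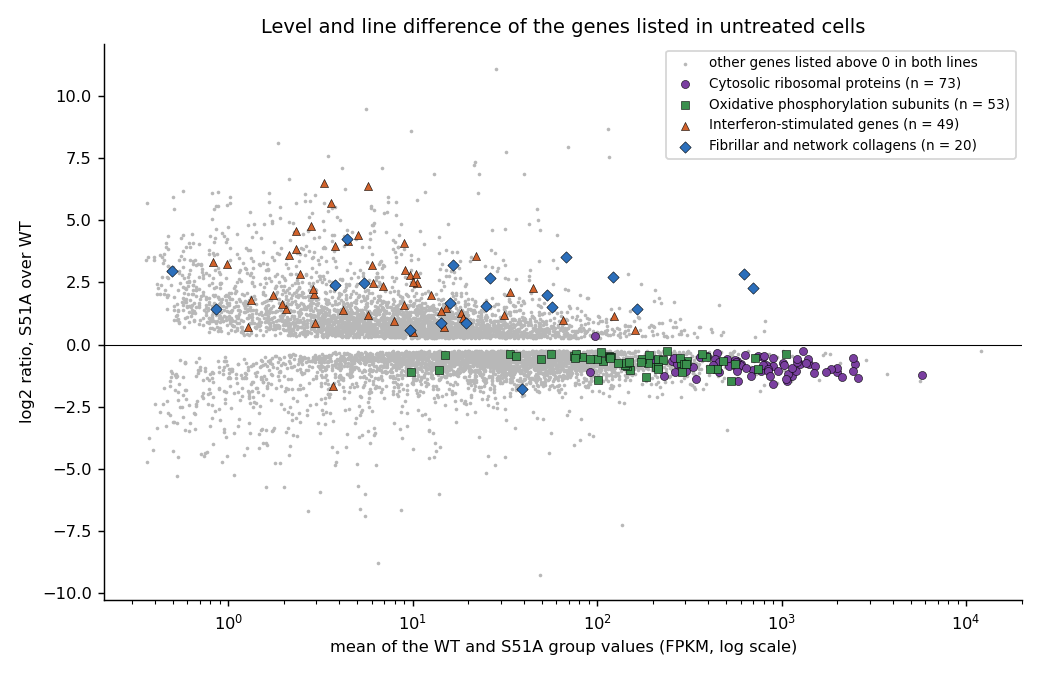
Mean of both group values (FPKM, log scale) against the log2 ratio of S51A over WT for each gene listed above 0 in both lines, 1 point a gene. The gap around 0 holds the genes that were not called. The 73 cytosolic ribosomal protein genes and 53 oxidative phosphorylation genes lie at the right and, apart from 1 ribosomal gene, below 0. The 49 interferon-stimulated genes and all but 1 of the 20 collagen genes shown lie mostly above it.

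Transcript length also went with direction. By the longest protein-coding transcript of each gene in the GENCODE annotation, which 7232 genes had, 25.3% of the shortest class (371 to 1486 bases) and 71.8% of the longest class (6390 to 123179 bases) were higher in S51A. Within the most expressed of 4 level classes the share went from 12.7% of the shortest genes to 41.3% of the longest, and within the least expressed from 62.0% to 75.8%. Length and level were thus each associated with direction within classes of the other, and their part in the differences of single gene classes was not tested.

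The largest differences were in genes that one line hardly expressed. Loxl2, a lysyl oxidase that crosslinks collagen, was at 0.0261 FPKM in WT against 56.5 FPKM in S51A, the highest ratio among genes above 0 in both lines. The next were Sox11, a developmental transcription factor, at 0.0160 and 11.2 FPKM, and Ogn, a small leucine-rich proteoglycan, at 0.559 and 229 FPKM. Values this low in WT leave the size of the fold imprecise, while the S51A level itself is clear of 0. Cthrc1, a secreted protein of remodelling connective tissue, was at 0.566 FPKM in WT against 139 FPKM in S51A. The surface glycoprotein gene Cd34 was at 0.295 and 63.6 FPKM and podoplanin (Pdpn) at 0.678 and 79.9 FPKM. Rgs4, which limits G protein signalling, was at 0.0501 FPKM in WT against 19.6 FPKM in S51A. The inositol synthase gene Isyna1 was at 0.283 and 42.5 FPKM, and the carbonyl reductase gene Cbr2 at 0.392 and 45.6 FPKM.

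On the other side stood Grem1, whose secreted product blocks bone morphogenetic proteins (BMPs). It lies on chromosome 2 (113748675 to 113758648, mm10) and was 153-fold lower in S51A. Transcription factors of the embryonic vertebral column were lower too, with Pax1 at 48.5 FPKM in WT against 1.34 FPKM in S51A and Nkx3-2 at 10.9 and 0.0921 FPKM. The stromelysin gene Mmp10 was at 10.2 and 0.104 FPKM, the phosphodiesterase gene Pde3b at 10.9 and 0.166 FPKM, and the raft protein gene Rftn1 at 27.3 and 0.42 FPKM. Brinp1 was at 12.9 FPKM in WT against 0.0288 FPKM in S51A and Tmem47 at 17.1 and 0.170 FPKM.

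**Figure D2:**
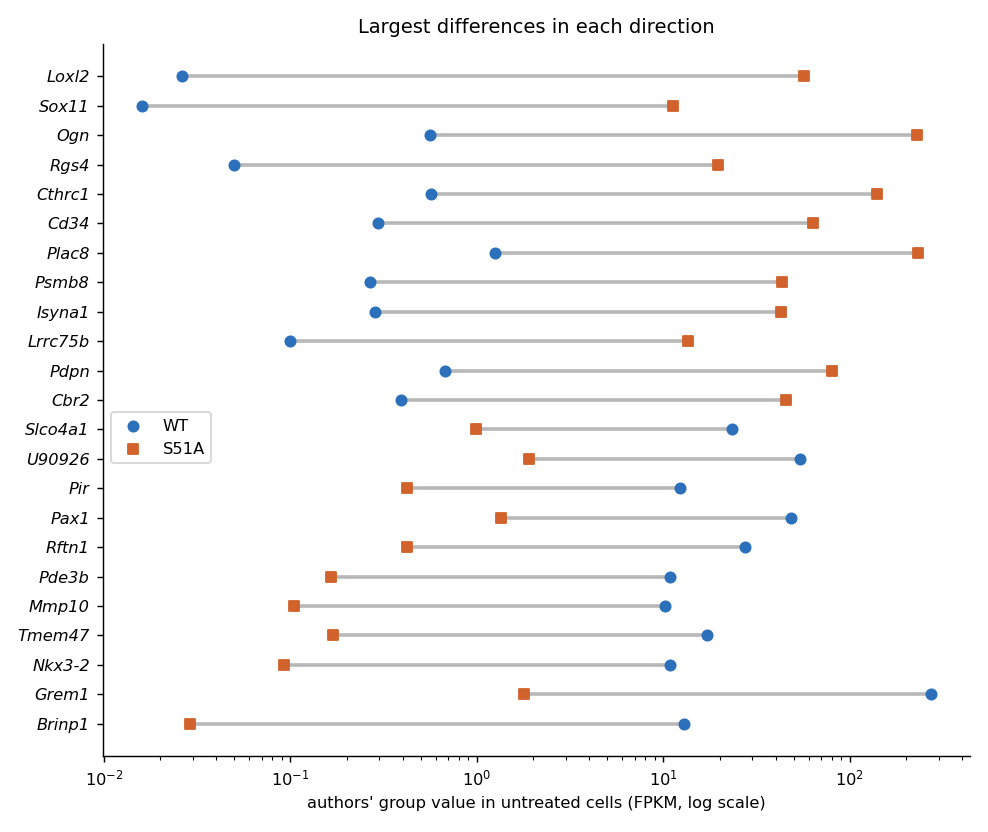
Group values in untreated cells (FPKM, log scale) of 12 genes higher and 11 genes lower in S51A by the largest ratios among genes above 0 in both lines and at 10 FPKM or more in the higher line. Circles are WT, squares S51A, and each line joins the values of 1 gene. Loxl2, at 0.0261 FPKM in WT against 56.5 FPKM in S51A, spans the widest range among the genes higher in S51A, and Brinp1, at 12.9 and 0.0288 FPKM, among those lower that are drawn.

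Genes listed at 0 in one line have no fold. Of the 82 at 0 in WT, those with the highest S51A value beside the patterning genes included Dkk3, a secreted protein of the Dickkopf family, at 15.7 FPKM, the collagen gene Col8a2 at 11.6 FPKM, and Ripk3, the kinase that triggers necroptosis, at 8.0 FPKM. In the libraries taken at 15 min, Dkk3 and Ripk3 again had WT values of 0, with 15.6 and 8.46 FPKM for S51A. The 13 at 0 in S51A reached lower values in WT. Among the highest were the cornified envelope gene Lce1g at 11.5 FPKM in WT, the catenin gene Ctnnd2 at 4.0 FPKM, and the steroid-metabolizing enzyme gene Akr1c18 at 2.25 FPKM. A group value of 0 covers only what the authors' software listed, since no count lies behind it here.

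The targeted factor and its partners were lower in S51A where they were listed. Eif2s1, which encodes the substituted subunit, was at 91.8 FPKM in WT against 45.3 FPKM in S51A, and Eif2s2, for the β subunit, at 181 and 86.8 FPKM. The 3 other eIF2 genes looked for were not listed. All 5 subunits of eIF2B, the exchange factor that phosphorylated eIF2 blocks, were lower, with a median log2 ratio of -0.54. The largest difference among them was Eif2b3, at 55.7 FPKM in WT against 20.7 FPKM in S51A, and the smallest Eif2b5, at 65.8 and 48.2 FPKM. With equal summed FPKM the eIF2B median was -0.04, with 1 subunit higher and 4 lower. The substitution itself cannot be seen in a table of gene levels, so these values do not check the labels.

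The few listed genes that act on the phosphorylation site went the other way in untreated cells. Of 11 kinases, phosphatase subunits and regulators, 3 were listed and all 3 were higher in S51A. At 15 min 6 were listed, 3 higher and 3 lower, and at 120 min 4 were listed, 2 higher and 2 lower. Eif2ak3, which encodes the endoplasmic reticulum kinase PERK, was at 2.81 FPKM in WT against 12.2 FPKM in S51A. The double-stranded RNA kinase gene Eif2ak2 (PKR), itself interferon-inducible, was at 10.8 and 25.8 FPKM, and Dnajc3, whose product restrains such kinases, at 19 and 30.7 FPKM. Of 15 genes around eEF2, 10 were listed, 1 higher and 9 lower, with a median of -0.45 that became 0.05 at equal summed FPKM. The pathway's largest difference was Dph2, which takes part in making the diphthamide residue of eEF2, at 20 FPKM in WT against 5.74 FPKM in S51A. Eef2k, the eEF2 kinase, was at 4.14 and 2.23 FPKM, and the AMPK catalytic genes Prkaa1 and Prkaa2 were at 37.8 and 29.2 FPKM and at 2.46 and 1.82 FPKM. The calmodulin gene Calm2 was the exception, at 407 FPKM in WT against 526 FPKM in S51A.

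ATF4 target genes were divided. Of 44, 36 were listed, 10 higher and 26 lower in S51A with a median log2 ratio of -0.60, and 8 were lower by 2-fold or more against 2 higher. At equal summed FPKM the median was -0.10. The lower side held the cystine transporter gene Slc7a11 at 0.966 FPKM in WT against 0.212 FPKM in S51A, the glutathione-degrading Chac1 at 16.8 and 4.41 FPKM, the pseudokinase gene Trib3 at 9.65 and 3.03 FPKM and the translation repressor gene Eif4ebp1 at 208 and 91.8 FPKM. Serine synthesis was represented by Phgdh at 179 FPKM in WT against 81.0 FPKM in S51A and Psat1 at 298 and 161 FPKM. The opposite side held genes of several roles, among them the amino acid transporter gene Slc38a2 at 127 and 172 FPKM and the gluconeogenic enzyme gene Pck2 at 17.5 and 23.4 FPKM. The chromatin-binding stress protein gene Nupr1 was at 20.4 FPKM in WT against 52.0 FPKM in S51A, the transcription factor gene Atf3 at 1.55 and 3.18 FPKM, and the mTOR inhibitor gene Ddit4 at 17.8 and 30.5 FPKM. The proline synthesis genes Pycr1, at 3.51 and 4.79 FPKM, and Aldh18a1, at 40.8 and 60.1 FPKM, were also higher in S51A.

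The letters of the element that ATF4 binds, TGATGNAA, were present on both sides, in 9 of 21 lower and 5 of 10 higher members with a promoter. They occurred on either strand in 14 of the 31 listed targets with a promoter in the RefSeq table (45.2%), against 4.06% of all 27025 promoters of the same 300 bases. A match describes letters, not binding. One target lower in S51A and 3 higher ones are shown to let the same element be seen on both sides, read 5′ to 3′ on the gene's strand with the element in capitals. Chac1 is lower in S51A. The stretches lie at chr2:119351029-119351076 (plus strand), chr7:126625553-126625600 (minus), chr1:191183416-191183463 (minus) and chr11:120643824-120643871 (minus) in GRCm38.p6.
Chac1: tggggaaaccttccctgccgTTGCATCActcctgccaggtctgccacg
Nupr1: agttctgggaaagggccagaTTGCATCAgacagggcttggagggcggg
Atf3: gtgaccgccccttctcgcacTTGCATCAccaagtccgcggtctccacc
Pycr1: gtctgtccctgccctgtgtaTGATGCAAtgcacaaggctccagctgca
The first 3 carry the element in reverse complement and Pycr1 carries it forward, at 95 to 185 bases before the annotated start.

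Interferon-stimulated genes, which cells switch on after sensing virus or cytokine, were higher in S51A almost as a class. Of 56, 49 were listed, and 48 were higher and 1 lower, with a median log2 ratio of 2.24 against -0.27 over all listed genes, and 41 were higher by 2-fold or more. These are modestly expressed genes, with a median mean level of 6.05 FPKM, and 60.5 to 72.7% of genes were higher in each of the 5 least expressed of 10 level classes. Genes almost silent in WT showed the largest ratios. Ifi44 was at 0.0728 FPKM in WT against 6.54 FPKM in S51A, the guanosine triphosphatase gene Igtp at 0.136 and 11.3 FPKM and its relative Irgm2 at 0.138 and 7.11 FPKM. Regulators of the response were included, with the transcription factor gene Irf7 at 0.188 FPKM in WT against 4.47 FPKM in S51A and Usp18, which removes ISG15 and dampens receptor signalling, at 0.454 and 9.65 FPKM. Others were well expressed in both lines and differed less. Isg15 itself was at 44.3 FPKM in WT against 86.8 FPKM in S51A, the virion-tethering Bst2 at 77.2 and 169 FPKM and Ly6e at 127 and 193 FPKM. The single exception was Oasl1, at 5.62 FPKM in WT against 1.80 FPKM in S51A, although its relatives Oasl2, at 1.00 and 17.0 FPKM, and Oas1a, at 0.325 and 3.92 FPKM, were on the side of the others. Families such as these share sequence, so reads could have been split among them.

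The interferon response element was common in their promoters. The letters GAAA, any 2 bases and GAAA again were found, on either strand, in 19 of the 38 listed members with a promoter (50%), against 3.15% of listed genes and 3.49% of all promoters. Shown are 4 members with a match before the start site and large differences, with the element in capitals, at chr11:58199502-58199551, chr11:58214893-58214942, chr3:142530263-142530312 and chr19:34607749-34607798, all on the plus strand of GRCm38.p6.
Igtp: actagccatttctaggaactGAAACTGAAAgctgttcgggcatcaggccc
Irgm2: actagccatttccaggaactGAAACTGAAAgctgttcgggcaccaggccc
Gbp7: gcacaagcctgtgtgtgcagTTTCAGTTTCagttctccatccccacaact
Ifit3b: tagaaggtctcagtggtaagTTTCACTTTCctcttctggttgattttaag
The Igtp and Irgm2 stretches are near-copies and hold the same 10 letters. Gbp7, at 0.306 FPKM in WT against 4.35 FPKM in S51A, and Ifit3b, at 0.188 and 1.77 FPKM, carry the element in reverse complement.

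Antigen presentation on class I molecules followed the same direction in every listed member. Of 17 genes, 15 were listed and all 15 were higher in S51A, with a median log2 ratio of 1.80 and 13 at 2-fold or more. The immunoproteasome subunit gene Psmb8 (chromosome 17, 34198195 to 34201454) was 162-fold higher, and Psmb9 was at 0.221 FPKM in WT against 4.08 FPKM in S51A. Transport of peptides into the endoplasmic reticulum was covered by Tap1 at 0.599 and 11.2 FPKM and Tap2 at 1.31 and 15.0 FPKM. The heavy chain gene H2-K1 was at 12.9 FPKM in WT against 109 FPKM in S51A and H2-D1 at 62.7 and 140 FPKM, genes whose similar sequences can share reads. Nlrc5, the transactivator of the class, differed least, at 1.45 and 2.31 FPKM. Constitutive proteasome subunits went the opposite way. All 29 listed of 32 were lower, with a median of -0.85, and at equal summed FPKM 25 were lower and 4 higher, with a median of -0.35.

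Innate inflammation genes outside the interferon class were listed on both sides. Complement and acute phase genes were listed for 12 of 22, with 10 higher, all of them by 2-fold or more, and 2 lower. The classical pathway protease genes C1s1 and C1ra were at 1.34 FPKM in WT against 26.5 FPKM in S51A and at 1.51 and 18.1 FPKM. Of 40 NF-kB and chemokine genes, 27 were listed, 19 higher and 8 lower. Their median mean level was 13.1 FPKM, within a level class (10.1 to 14.6 FPKM) in which 60.5% of all genes were higher, so the count is not far from that of genes of like level. The adhesion gene Vcam1 was at 3.53 FPKM in WT against 49.9 FPKM in S51A and the neutrophil chemokine gene Cxcl1 at 36 and 258 FPKM. The monocyte chemokine gene Ccl2 was on the other side at 419 and 231 FPKM, as were the cytokine genes Il33, at 4.44 and 1.92 FPKM, and Il11, at 2.77 and 0.266 FPKM. Prostaglandin genes were lower for 6 of the 8 listed. Among these, Ptgs1 was at 12.5 FPKM in WT against 3.14 FPKM in S51A and the phospholipase gene Pla2g4a, which releases the substrate, at 54.6 and 12.8 FPKM, with the prostacyclin synthase gene Ptgis at 15.7 and 33.4 FPKM as a member on the higher side.

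**Figure D3:**
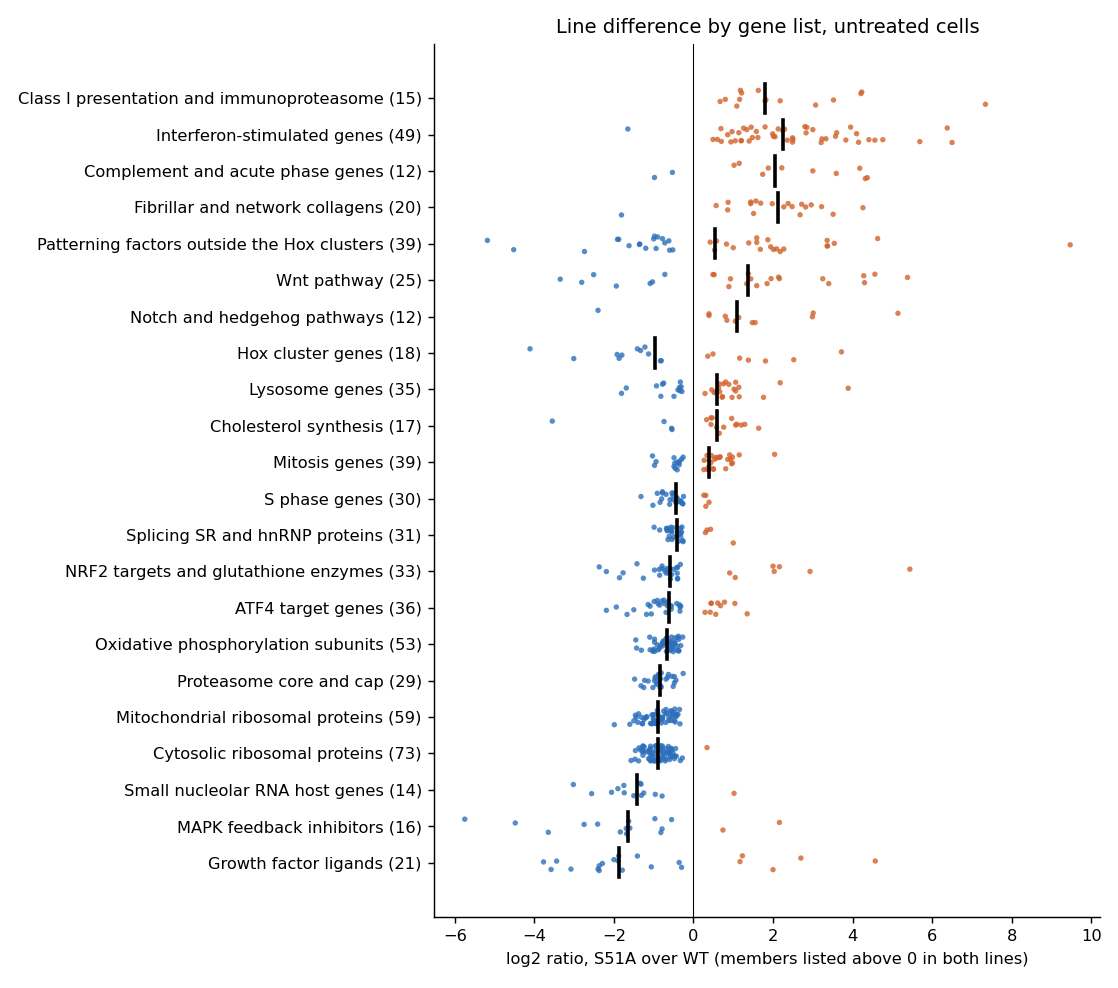
Log2 ratio of S51A over WT for the members of 22 gene lists that were listed above 0 in both lines, 1 point a gene, with the number of points in brackets and the median as a bar. Members listed at 0 in one line are not drawn, which places the Hox bar at -0.98, whereas it is 0.36 with them. Class I genes lie wholly above 0, and proteasome, oxidative phosphorylation and mitochondrial ribosomal genes wholly below.

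Growth signalling through the ERK mitogen-activated kinase leaves a transcript record, because the pathway induces its own inhibitors. The list of 20 feedback genes counted here holds, besides inhibitors, the ETS transcription factor genes Etv4 and Etv5. Of the 20, 16 were listed, and 14 were lower and 2 higher in S51A with a median log2 ratio of -1.65. At 2-fold or more, 10 were lower and 1 higher, against 15.0% and 22.1% of all listed genes. The receptor signalling inhibitor gene Spry4 was at 3.16 FPKM in WT against 0.0587 FPKM in S51A and Spry2 at 12.7 and 3.94 FPKM. The ERK phosphatase genes Dusp4, at 9.78 and 0.785 FPKM, and Dusp6, at 33.8 and 9.45 FPKM, were lower, as were the ETS factor genes Etv4, at 48.8 and 2.19 FPKM, and Etv5, at 5.03 and 0.946 FPKM. The 2 on the other side were phosphatases with a preference for stress kinases, Dusp10 at 1.55 FPKM in WT against 6.92 FPKM in S51A and Dusp16 at 8.06 and 13.5 FPKM. The median at equal summed FPKM kept its sign.

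Transcription factors and cyclins downstream of growth signals followed in part. Fosl1, an AP-1 subunit sustained by ERK, was at 104 FPKM in WT against 8.69 FPKM in S51A, and Jun at 52.0 and 25.8 FPKM, whereas Fos was at 1.48 and 14.8 FPKM and Junb at 64.0 and 91.1 FPKM. Myc was at 96.3 FPKM in WT against 26.7 FPKM in S51A. Early growth response genes as a list were 5 higher and 8 lower, with a median of -0.29 that became 0.21 at equal summed FPKM. The D cyclin genes Ccnd1 (chromosome 7, 144929931 to 144939925), at 167 and 13.6 FPKM, and Ccnd2, at 46.2 and 8.11 FPKM, were lower, and inhibitors of cyclin-dependent kinases were mostly higher. Cdkn1c was at 5.58 FPKM in WT against 48.5 FPKM in S51A, Cdkn1b at 24.9 and 53.4 FPKM and Cdkn2a at 232 and 340 FPKM, with Cdkn1a on the lower side at 15.3 and 10.9 FPKM.

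Ligands that feed growth factor receptors were mostly lower and receptors were divided. Of 36 ligand genes, 21 were listed, 5 higher and 16 lower, with a median of -1.88 and 14 lower by 2-fold or more. Ligands of the EGF receptor were among them, with Ereg at 11.6 FPKM in WT against 0.973 FPKM in S51A, Areg at 2.93 and 0.270 FPKM and Hbegf at 34.3 and 6.63 FPKM. Fgf10 was at 16.4 and 1.21 FPKM, Hgf at 6.59 and 0.779 FPKM, and the angiogenic Vegfa at 47.8 and 9.32 FPKM. Pleiotrophin (Ptn), at 0.889 FPKM in WT against 21.1 FPKM in S51A, and Igf1, at 1.68 and 11.0 FPKM, were on the other side. Of the receptors, 12 were higher and 8 lower. Egfr itself, on chromosome 11 (16752203 to 16913907), had 1.26 FPKM in WT against 16.0 FPKM in S51A, opposite to its ligands, and Pdgfrb was at 24.3 and 47.8 FPKM. The HGF receptor gene Met, like its ligand, was lower, at 28.4 and 11.9 FPKM.

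**Figure D4:**
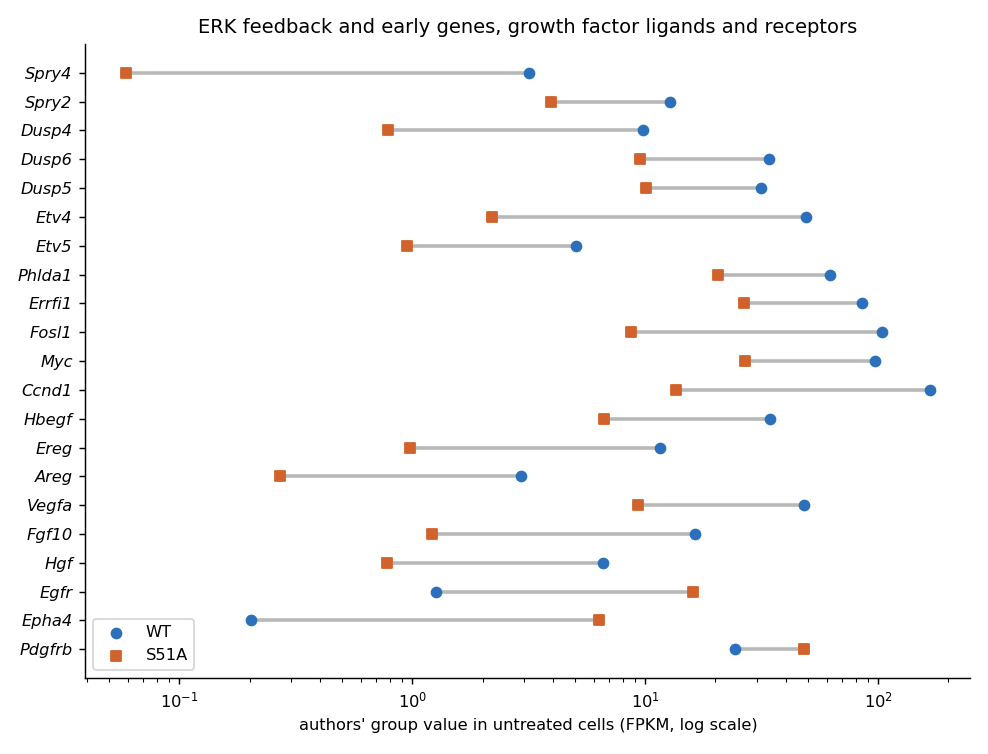
Group values in untreated cells (FPKM, log scale) of 21 genes of growth signalling, chosen for their roles after their values were seen. Circles are for WT, squares for S51A and a line joins the values of 1 gene. The feedback and early genes and the ligands shown are lower in S51A, Spry4 most (3.16 FPKM in WT, 0.0587 FPKM in S51A). The receptors Egfr, Epha4 and Pdgfrb are higher. Members that went the other way are not drawn, among them Fos, Egr1, Ptn and Igf1 (higher) and the receptors Met and Epha2 (lower).

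Developmental signalling pathways differed member by member. Wnt pathway genes were listed for 26 of 47, 19 higher and 7 lower, 15 of the former by 2-fold or more. Their median mean level was 4.77 FPKM, within a level class (3.98 to 6.59 FPKM) in which 68.5% of all genes were higher. The count higher is thus not far from that of genes of like level. Secreted modulators had large ratios, with the antagonist gene Sfrp1 at 0.164 FPKM in WT against 6.82 FPKM in S51A and the enhancer genes Rspo3, at 0.219 and 5.17 FPKM, and Rspo2, at 0.281 and 5.54 FPKM. The nuclear effector gene Lef1 was lower, at 5.70 and 0.812 FPKM, as was the feedback gene Nkd2, at 3.23 and 0.316 FPKM. For BMPs, 12 genes were higher and 8 lower. Besides Grem1, targets of BMP signalling were lower, with Id1 at 105 FPKM in WT against 24.3 FPKM in S51A and Id2 at 74.0 and 32.2 FPKM, while the receptor gene Bmpr1a was at 22.8 and 46.2 FPKM. For TGF-β the split was 9 to 8. Its ligand genes Tgfb2, at 0.210 and 5.28 FPKM, and Tgfb3, at 2.43 and 32.4 FPKM, and the induced matrix gene Tgfbi, at 3.84 and 93.7 FPKM, were higher. Lower members included the activin subunit genes Inhba, at 71.5 and 23.1 FPKM, and Inhbb, at 2.91 and 0.184 FPKM, and the inhibitory Smad gene Smad7, at 15.0 and 6.45 FPKM. Of 12 listed Notch and hedgehog genes, 11 were higher, among them the hedgehog co-receptor genes Boc, at 0.213 and 7.52 FPKM, Cdon, at 3.36 and 27.1 FPKM, and Gas1, at 9.65 and 76.6 FPKM. Ptch1, both receptor and target, was at 3.18 and 9.32 FPKM.

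Positional identity genes differed by cluster. The Hox genes, which record where along the body axis a cell arose, lie in 4 clusters, and 23 of the 39 looked for were listed, 12 higher and 11 lower. In the HoxC cluster on chromosome 15, 6 of 8 listed genes were lower, including Hoxc10 at 26.5 FPKM in WT against 1.55 FPKM in S51A and Hoxc9 at 21.9 and 2.69 FPKM. In the HoxB cluster on chromosome 11, 4 of 5 were lower, such as Hoxb7 at 43.1 and 12.4 FPKM. In the HoxA cluster on chromosome 6, 6 of 7 were higher, with Hoxa10 at 4.63 and 16.2 FPKM. The 3 listed HoxD genes on chromosome 2, Hoxd9, Hoxd10 and Hoxd11, had a WT value of 0 and S51A values of 2.20, 2.95 and 1.16 FPKM. Hoxa11, at 0 and 2.33 FPKM, was a further gene of this group. The median of the listed Hox genes was 0.36, but -0.98 without the members at 0 and -0.23 with at least 1 FPKM in the higher line, so no direction can be given for the family as a whole.

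Other patterning factors were listed for 51 of 114, 33 higher and 18 lower. Their median mean level was 5.98 FPKM, within a level class (3.98 to 6.59 FPKM) in which 68.5% of all genes were higher. The count higher is thus not above that of genes of like level. Their median log2 ratio was 1.59, or 0.53 without the members at 0. The gene Rhox12 of the reproductive homeobox cluster had a WT value of 0 and an S51A value of 83.3 FPKM. On the higher side were Foxd1 at 2.10 FPKM in WT against 52.0 FPKM in S51A, Tbx15 at 8.51 and 88.6 FPKM and Pax3 at 0.274 and 3.16 FPKM. On the lower side stood Nr2f1, at 25.1 and 1.09 FPKM, and Nr2f2, at 57.3 and 18.6 FPKM. Imprinted genes, expressed from one parental copy, were listed for 17 of 35, 11 higher and 6 lower. The noncoding genes Rian and Meg3 of one imprinted domain on chromosome 12 were at 2.31 and 30.3 FPKM and at 1.56 and 8.4 FPKM, and Dlk1 and Dio3 of that domain had WT values of 0 and S51A values of 1.95 and 1.52 FPKM. H19 was lower, at 17.8 FPKM in WT against 6.15 FPKM in S51A.

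Listed fibroblast markers were expressed in both lines. Of 13 fibroblast markers, 10 were listed, 7 higher and 3 lower (Thy1, Vim and Dcn), with levels from 0.599 to 1872 FPKM in WT and from 6.15 to 1160 FPKM in S51A. Lum, S100a4 and Fap were not listed. A marker that is not listed may be expressed alike in both lines, so its absence says nothing about cell type. Of markers of other types, none of 6 endothelial and none of 4 pluripotent markers was listed, and the 2 listed blood markers did not exceed 2.11 FPKM. Other sets were listed in larger part, with 4 of 6 neural markers reaching 74.0 FPKM (Tubb3, at 16.2 and 74.0 FPKM, and Nes, at 52.3 and 34.8 FPKM), 3 of 4 adipocyte markers (Fabp4 at 30.3 and 16.6 FPKM) and 2 of 7 cartilage and bone markers (Sox9 at 23.4 and 11.9 FPKM). The part of other cell types in the differences was not tested. Keratin 19 (Krt19) was the 1 listed of 9 epithelial markers, at 6.06 FPKM in WT against 8.17 FPKM in S51A. Smooth muscle α-actin (Acta2) was at 23.6 and 111 FPKM and calponin (Cnn1) at 0.409 and 12 FPKM, both markers of contractile fibroblasts as well as of muscle. In RNA from whole cultures, fewer cells of a type and less RNA per cell cannot be told apart.

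Collagens were higher in S51A for 20 of the 21 listed of 34, with a median log2 ratio of 2.27. The main fibrillar chains were abundant in both lines, with Col1a1 at 241 FPKM in WT against 1160 FPKM in S51A, Col1a2 at 155 and 1097 FPKM and Col3a1 at 21.7 and 85.6 FPKM. Collagen VI, a microfibrillar type, was higher in its 3 listed chains, with Col6a1 at 32.2 and 212 FPKM, Col6a2 at 11.0 and 125 FPKM and Col6a3 at 0.438 and 8.4 FPKM. The basement membrane genes Col4a1, at 12.6 and 37.3 FPKM, and Col4a2, at 7.52 and 24.3 FPKM, were higher too. Col8a1, at 60.5 FPKM in WT against 17.3 FPKM in S51A, was the exception. Of 64 other matrix genes, 38 were listed, 28 higher and 10 lower. The basement membrane proteoglycan perlecan (Hspg2) was at 0.642 FPKM in WT against 44.6 FPKM in S51A and periostin (Postn) at 0.599 and 13.7 FPKM, whereas osteopontin (Spp1) was at 923 and 83.9 FPKM and decorin (Dcn) at 54.2 and 8.88 FPKM.

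Genes that cut and grip the matrix were divided. Of the metalloproteinases and inhibitors, 20 were higher and 9 lower. The stromelysin and collagenase genes Mmp3, at 104 FPKM in WT against 5.06 FPKM in S51A, and Mmp13, at 37.8 and 5.82 FPKM, were lower with the inhibitor gene Timp1, at 375 and 133 FPKM. The membrane protease gene Mmp14 and its substrate gene Mmp2 were higher, at 37.8 and 140 FPKM and at 85.0 and 218 FPKM. The letters TGANTCA, which AP-1 binds, were in 13 of 79 promoters of genes lower by 8-fold or more (16.5%), against 4.62% of listed genes and 7.93% of all promoters, and in none of 12 promoters of ERK feedback genes. Among integrins, the collagen receptor gene Itga11 was at 0.261 FPKM in WT against 11.7 FPKM in S51A and the laminin receptor gene Itga6 at 14.2 and 1.59 FPKM. Contractile genes were 13 higher and 6 lower, or 16 and 3 at equal summed FPKM. Among them, Myh9, for nonmuscle myosin, was at 70.5 FPKM in WT against 193 FPKM in S51A and vimentin (Vim) at 1872 and 1075 FPKM.

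Protein synthesis and mitochondrial genes were lower as classes. Of 81 cytosolic ribosomal protein genes, 73 were listed, 1 higher and 72 lower, with a median log2 ratio of -0.88. At equal summed FPKM the median was -0.38, with 65 lower and 8 higher. The stalk protein genes Rplp1 and Rplp2 were at 8135 FPKM in WT against 3444 FPKM in S51A and at 3692 and 1479 FPKM. The exception was Rpl22l1, a paralog of Rpl22, at 85.6 and 109 FPKM. Ribosomal protein genes have processed copies elsewhere in the genome, so their reads may have been shared. All 59 listed of 77 mitochondrial ribosomal protein genes were lower, with a median of -0.88 and Mrpl12 at 357 and 89.9 FPKM, and at equal summed FPKM 49 were lower and 10 higher, with a median of -0.38. All 53 listed of 77 subunits of oxidative phosphorylation were lower, with a median of -0.66, and at equal summed FPKM 40 were lower and 13 higher, with a median of -0.16. The cytochrome oxidase subunit gene Cox5a was at 776 FPKM in WT against 284 FPKM in S51A. For comparison, the most expressed class of all listed genes had a median of -0.69, not far from those of the cytosolic ribosomal and oxidative phosphorylation lists. The mitochondrial ribosomal list had a median mean level of 50.8 FPKM, within a class (49.8 to 94.7 FPKM) with a median of -0.54. The 7 listed subunits of the cytosolic chaperonin were also lower, from Cct5 at 776 and 298 FPKM to Cct7 at 320 and 237 FPKM. Their median was -0.71, and at equal summed FPKM 5 were lower and 2 higher, with a median of -0.21.

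Host genes of small nucleolar RNAs were lower for 13 of the 14 listed, with a median of -1.42 and 11 at 2-fold or more. Their exons are mostly noncoding and their introns yield the RNAs that guide modification of ribosomal RNA. Snhg9 was at 56.9 FPKM in WT against 7.01 FPKM in S51A, Snhg3 at 186 and 44.6 FPKM, and Gas5 at 68.1 and 27.5 FPKM. Snhg18 was the exception, at 7.11 and 14.3 FPKM. Their median mean level was 28.1 FPKM, well under the 800 FPKM of the ribosomal proteins, and at equal summed FPKM the median was still -0.92.

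Metabolic lists were mixed. Glycolysis genes were 6 higher and 10 lower. Lactate dehydrogenase A (Ldha) was at 1209 FPKM in WT against 396 FPKM in S51A and its partner subunit gene Ldhb at 18.0 and 97.0 FPKM, while pyruvate kinase (Pkm) was at 1652 and 596 FPKM. Glycolysis as a list had a median of -0.46 that became 0.04 at equal summed FPKM. Cholesterol synthesis genes were higher for 13 of 17 listed, with the first-step enzyme gene Hmgcs1 at 28.8 and 61.4 FPKM. NRF2 targets and glutathione enzymes were 7 higher and 26 lower with a median of -0.59, or -0.09 at equal summed FPKM. Hmox1 was at 234 and 45.3 FPKM and the glutathione synthesis gene Gclc at 41.1 and 17.1 FPKM, but several glutathione transferases were higher, with Gstt1 at 2.13 and 92.4 FPKM and Gstm1 at 12.3 and 49.9 FPKM. Lysosome genes were 22 higher and 13 lower, or 29 and 6 at equal summed FPKM, with cathepsin L (Ctsl) at 508 and 158 FPKM.

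Differences of cell cycle genes were mostly under 2-fold. S phase genes were 4 higher and 26 lower with a median of -0.43, which became 0.07 at equal summed FPKM, and mitosis genes were 25 higher and 14 lower with a median of 0.39, or 36 higher and 3 lower with a median of 0.89 at that scale. Only 3 of the 39 mitosis genes differed by 2-fold or more, among them Cenpf, a kinetochore protein, at 4.38 FPKM in WT against 18.0 FPKM in S51A. Ccne1, the cyclin of S phase entry, was at 37.0 and 14.8 FPKM. For p53 targets 13 were higher and 9 lower, or 17 and 5 at equal summed FPKM. The death receptor gene Fas was at 1.80 FPKM in WT against 19.6 FPKM in S51A and the BH3-only gene Pmaip1 at 0.607 and 6.82 FPKM, whereas Bax was at 153 and 57.7 FPKM and the p53 gene Trp53 at 148 and 103 FPKM. Splicing factors were 4 higher and 27 lower, with a median of -0.41 and of 0.09 at equal summed FPKM.

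The direction of the line difference varied between chromosomes. The share of listed genes higher in S51A was 75.8% on chromosome 19, 75.4% on 14, 74.3% on 10 and 73.6% on 3. It was 28.9% on chromosome 9, 32.5% on 11, 34.4% on 7 and 37.3% on 2. The spread held at both levels of expression. Among the genes above the median level, 61.5% of genes on chromosome 10 and 11.2% of those on chromosome 9 were higher, and among those below it 87.7% and 50.5%. With only differences of 2-fold or more, of which 59.6% were higher, the shares were 89.0% on chromosome 10 and 31.7% on chromosome 9. At equal summed FPKM they were 85.1% and 43.3%, against 62.8% over all genes.

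**Figure D5:**
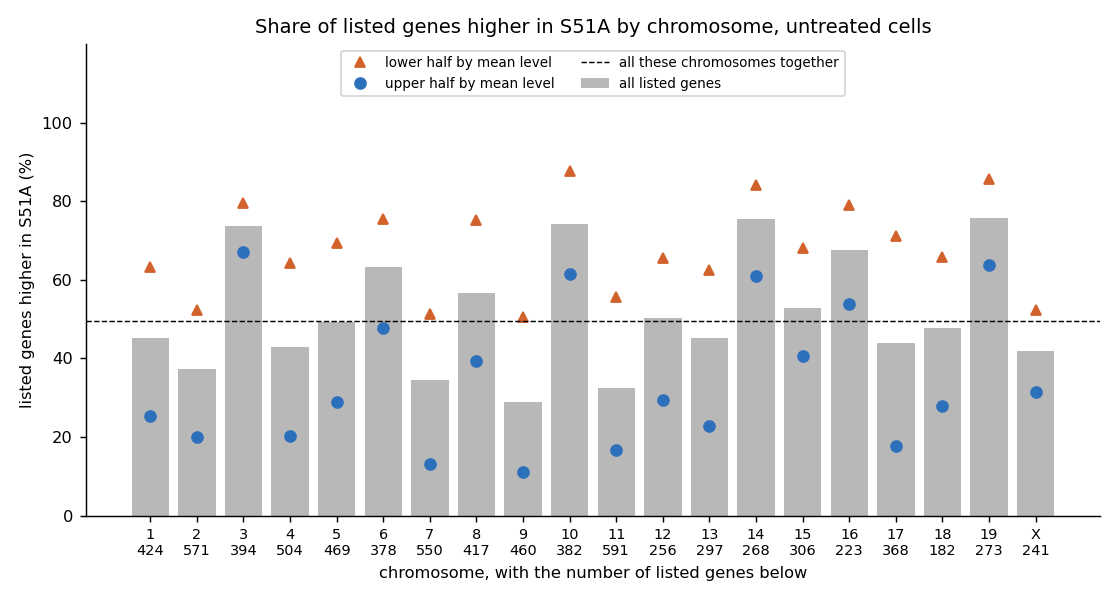
Share of listed genes higher in untreated S51A cells (%) by chromosome, with the number of listed genes under each chromosome. Bars are all listed genes, triangles the genes below and circles the genes above the median level of the table, and the dashed line is the share over these chromosomes. Chromosomes 3, 10, 14 and 19 have bars above 73% and chromosome 9 the lowest, at 28.9%.

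Size also varied between chromosomes inside the classes that were almost wholly lower. The ribosomal, mitochondrial ribosomal, oxidative phosphorylation and proteasome lists together hold 267 genes, of which 214 were listed and 213 were lower, with a median log2 ratio of -0.82. On chromosome 11, 26 of 27 such genes were listed, with a median of -1.07, and on chromosome 9 14 of 16, with a median of -1.17. On chromosomes 3, 10, 14 and 19, 5 of 14, 5 of 11, 4 of 8 and 4 of 10 were listed, with medians of -0.42, -0.52, -0.55 and -0.41. The 1 gene of the 214 that was higher, Rpl22l1, lies on chromosome 3. The medians did not follow the shares of all genes throughout. Chromosome 4, with 42.9% of its genes higher, had a median of -1.05, and chromosome 8, with 56.6% higher, one of -0.47. Of the members with large differences, Mrpl12 and Psmb3 (419 FPKM in WT, 150 FPKM in S51A) lie on chromosome 11 and Cox5a on chromosome 9, but Mrps6, at 296 and 97.7 FPKM, lies on chromosome 16, where 67.7% of genes were higher.

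Neighbourhoods within a chromosome could differ as much. Of 196 windows of 10 Mb with at least 15 listed genes, 16 had 80% or more of their genes higher and 8 had 80% or more lower. On chromosome 10 all 15 listed genes between 50 and 60 Mb were higher, and on chromosome 1 between 190 and 200 Mb 20 of 21 were, with a median log2 ratio of 1.43. On chromosome 7 between 120 and 130 Mb 67 of 76 were lower. Chromosome 4 held both kinds, with 44 of 53 genes higher between 40 and 50 Mb and 39 of 47 lower between 110 and 120 Mb.

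Promoter composition differed with the size of the difference. A promoter in the RefSeq table was found for 5843 genes, 77.4% of those used, so a check over the whole table is void and these values describe only the genes matched. The median number of CpG pairs per 300 bases was 22 for genes higher and 23 for genes lower by under 2-fold. It was 12 both for the 201 genes higher and for the 79 genes lower by 8-fold or more. Promoters with under 5 CpG pairs made up 4.25% and 2.84% of the small classes and 21.4% and 22.8% of the large ones. Genes listed at 0 in WT had a median of 18.5 pairs (56 genes), and those at 0 in S51A one of 5.0 (9 genes).

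The line difference recurred in separate libraries of the same lines. At 15 min of hydrogen peroxide the authors called 49.9% of 8308 entries higher and 50.1% lower in S51A, or 20.2% and 12.3% at 2-fold or more. At 120 min the shares of 6119 entries were 50.9% and 49.1%, or 26.5% and 20.9%. Of the untreated genes, 6369 (84.4%) were also listed at 15 min, where they make up 76.8% of the table, and 6251 of them (98.1%) had the same direction. Among the 2638 of these that differed by 2-fold or more in untreated cells, 3 were opposite at 15 min. They included the lysozyme gene Lyz2, at 2.11 FPKM in WT against 0.476 FPKM in S51A untreated and at 0.415 and 0.920 FPKM at 15 min, and Egr1, at 23.3 and 46.9 FPKM and then 26.5 and 15.2 FPKM. At 120 min 4328 genes were listed in both (57.3% of the untreated table and 70.8% of the later one) and 3544 (81.9%) had the same direction. Of the 784 opposite, 335 were higher in untreated S51A cells and 449 lower. Among the most abundant untreated genes the share with the same direction was 97.4% at 15 min and 57.0% at 120 min.

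The interferon, class I and collagen lists kept their direction at both times, and several lists that were lower in untreated cells did not. Interferon-stimulated genes were 47 higher and 1 lower at 15 min and 45 and 1 at 120 min. Class I genes were 16 higher and none lower at each time, and collagens 20 and 1 and then 17 and 1. ERK feedback genes were 3 higher and 15 lower and then 6 and 9. Cytosolic ribosomal protein genes were 7 higher and 50 lower at 15 min and 50 higher and 1 lower at 120 min. Oxidative phosphorylation genes were 17 higher and 26 lower and then 50 and 4. At 120 min mitochondrial ribosomal protein genes were 33 higher and 15 lower, proteasome genes 9 and 5 and small nucleolar RNA host genes 4 and 2. By chromosome the shares at 15 and 120 min were 80.6% and 82.1% higher on chromosome 19 and 27.2% and 24.9% on chromosome 9, and on chromosome 18 they were 41.2% and 35.9% against 47.8% untreated. Single genes showed the same, with Grem1 at 347 and 2.14 FPKM at 15 min and 232 and 1.08 FPKM at 120 min, and Psmb8 at 0.444 and 53.1 FPKM and then 0.334 and 81.0 FPKM.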

How the data were processed

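Polyadenylated RNA from the 6 untreated samples had been made into directional libraries and read from one end for 75 bases, per the labels' protocols. Tools in the submitters' processing notes are Cuffdiff, Cufflinks and STAR, with the build mm10 and no version or role. Which annotation was used is not stated in any source read here. Per the file headers, the deposited table holds a log2 FPKM value per line with the S51A over WT log2 ratio and a q-value, all the authors' own. A deposited log2 FPKM of -10 stands for 0. All 7555 entries carry the authors' call at q of at most 0.05. The deposited ratio equals the difference of both columns within 0.01. The table holds no values per sample, so the test is the authors' call, no error or replicate number can be given, and the depth is unknown. One further numeric column in each of the 3 tables was not used.

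FPKM values are 2 to the power of the deposited log2 values. The 6 entries with a pair of symbols were left out of work by symbol, leaving 7549. Positions are those the table lists, in mm10 with 1 added to the start, and can span neighbouring genes. RefSeq symbols matched 7277 genes and GENCODE symbols 7327. Promoters run from 250 bases before to 50 after the RefSeq start (GRCm38.p6). Motifs were searched on both strands, and printed stretches have 20 bases on each side. Names come from a rule: the 12 largest differences each way at 10 FPKM or more, up to 8 genes at 0 in each line, up to 4 members each way of each list (all of a list of 15 or fewer), the 10 most abundant genes, cell type markers and a few translation and stress genes. A few genes that the rule names are not reported here. Other members shown with these, and the 21 genes of the growth signalling plot, were chosen after their values were seen. The 50 lists hold 1672 genes, 1069 of them listed, and members and lists were chosen with earlier results of these data known. Scripts used Python 3.11.15, pandas 2.3.3 and NumPy 2.4.6 and were tested on simulated data. Alternatives were a minimum fold, stricter q-value, minimum FPKM, pseudocount of 1, 3 scalings and leaving out genes at 0.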

Additional observations from a re-analysis of the deposited data

How the results depend on the processing

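With a minimum of 2-fold, 1667 genes were higher and 1132 lower. Under a stricter q-value, minimum levels of 1 and 5 FPKM in the higher line and 3 scalings, both counts stayed within 1.5 times their main value, but the share higher ran from 44.3% at 5 FPKM or more to 62.8% at equal summed FPKM (62.3% without microRNA genes, 50.4% centred on the median), against 49.6% as deposited. Scaling to equal summed FPKM turned the sign of 5 of 46 list medians, to 0.05 for the eEF2 pathway, 0.21 for early growth response genes, 0.09 for splicing factors, 0.04 for glycolysis and 0.07 for S phase genes. Without microRNA genes, an alternative chosen after seeing the data, these medians were 0.05, 0.21, 0.09, 0.04 and 0.06. At equal summed FPKM, 29 further list medians kept their sign but changed by more than 1.5 times, and 12 changed by less. Centring on the median changed 19 of the 46 by more than 1.5 times and turned none. The sum of a table of called genes need not stand for the library. The Hox median of 0.36 became -0.23 at 1 FPKM or more and -0.98 without genes at 0; its members at 0 are what the latter removes. A pseudocount of 1 turned no list median. No paired analysis was possible because the files give 1 value per group, and for the same reason no sample could be left out. Depth limits the genes near 0, whose folds are imprecise, but its size is unknown.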

Other observations

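Some values stand outside the comparison above. Xist, the noncoding RNA of the inactive X chromosome, was not listed in untreated cells. At 120 min it had 0.0367 FPKM in WT against 12.4 FPKM in S51A. None of 10 Y-linked genes looked for was listed in the untreated table. However, 1 other entry of that table lies on chromosome Y. It was above the median level and lower in S51A, with a log2 ratio of -0.76. At 15 and 120 min 1 entry on this chromosome was listed each time, lower and then higher in S51A. Absence from a table of called genes does not show that a gene was not expressed. The most abundant entry of the untreated table was a microRNA gene, Mir6236, at 13125 FPKM in WT against 10885 FPKM in S51A, and in the other tables it was at 10809 and 28924 FPKM and at 18306 and 42055 FPKM. A microRNA gene is short, and FPKM divides by length.

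Replication-dependent and variant histone genes were higher in S51A for 7 of 9 listed. The libraries were made from polyadenylated RNA, so histone transcripts without a poly(A) tail may be missed. Hist2h2be was at 0.0947 FPKM in WT against 0.847 FPKM in S51A and H2afx at 46.2 and 91.1 FPKM, while Hist1h4i was lower, at 22.6 and 2.04 FPKM. Genes of DNA methylation and Polycomb repression were 10 higher and 8 lower, or 14 and 4 at equal summed FPKM. The maintenance methyltransferase gene Dnmt1 was at 122 FPKM in WT against 67.6 FPKM in S51A and the de novo enzyme gene Dnmt3a at 1.64 and 3.71 FPKM, and the Polycomb genes Eed and Phc2 were at 56.9 and 24.1 FPKM and at 134 and 46.9 FPKM.

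Cell death genes were 16 higher and 8 lower of 24 listed. Besides Ripk3, the sensor gene Zbp1, which acts on it, was at 0.470 FPKM in WT against 8.4 FPKM in S51A and the gasdermin gene Dfna5 at 0.148 and 4.35 FPKM. The necroptosis effector gene Mlkl was at 41.9 and 32.2 FPKM, the survival gene Bcl2l1 at 45.3 and 15.5 FPKM and the apoptosome gene Apaf1 at 7.84 and 25.3 FPKM.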
